A study of Mus musculus with 36 samples.

Results

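Kcnq1ot1, Malat1, Neat1, Tug1, Meg3, Rian and Mirg, 7 long noncoding RNAs of the nucleus or of imprinted loci, were followed through the fractions of mouse embryonic stem (ES) cells and fibroblasts. The members were taken by gene symbol out of 25239 genes in the count table of P-body and cytoplasm libraries, 48440 in the table of Ago2 knockout libraries and 25229 in the table of polysome and total libraries. All 7 were found in each table. The members were chosen by name with measured values of these libraries in view. Of those values the levels of Kcnq1ot1 after Nudt21 knockdown are known to have been used, so every value after that knockdown is a description without a test, and for the other comparisons which values were used is not recorded. The day 3 control libraries are the reference for that knockdown, so tests of Kcnq1ot1 that include them are not independent of the choice. P-bodies are cytoplasmic granules of untranslated RNA and RNA-binding proteins. P-bodies marked by lentiviral GFP-LSM14A were sorted from cell lysates from which nuclei had been spun out, and each P-body library was set against the cytoplasm of the same kind of cell. By the study's methods, that cytoplasm was a resuspended pellet of the lysate, sampled before P-bodies were sorted from it. It therefore still held P-bodies and lacked RNA left in the supernatant. Whether RNA of the nucleus was left in either fraction was not tested.

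Naive ES cells were v6.5 cells (C57BL/6 crossed with 129S4Sv/Jae) held with LIF and inhibitors of MEK and GSK3, and primed ES cells were grown with activin A and bFGF. Mouse embryonic fibroblasts (MEFs) carried a doxycycline-inducible Oct4, Klf4, Sox2 and Myc cassette in Col1a1, M2-rtTA at Rosa26 and a Pou5f1-EGFP reporter. Further MEFs were taken at day 3 of doxycycline induction with a control or a Nudt21 short hairpin RNA (shRNA). Ago2 knockout (KO) ES cells were made with CRISPR-Cas9. Each of these 6 conditions had 2 P-body and 2 cytoplasm libraries. Polysome and total libraries, 3 of each, came from clonal naive ES cells made from a line with GFP-LSM14A. Their DDX6, a helicase that P-bodies need, carried an FKBP12 F36V degron. These cells were harvested after 6 h with dTAG-13 (DDX6 degron) or without it (control). The labels do not say that numbered replicates were separate cultures, while the study's methods call its replicates biologically independent.

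Most long noncoding RNAs of this kind act in the nucleus, and the RNAs chosen here are known there in different roles. Malat1 concentrates in nuclear speckles and its cleaved 3′ end is protected by a triple helix around an A-rich tract, while Neat1 is the scaffold of paraspeckles and is made in a short polyadenylated form and a long form. Kcnq1ot1 is an unspliced transcript of the paternal allele, antisense to Kcnq1, that silences neighbouring genes in cis. Tug1 is a spliced and widely expressed RNA, and Meg3, Rian and Mirg come from the maternal allele of the Dlk1-Dio3 domain, where Rian hosts small nucleolar RNAs and Mirg hosts microRNAs.

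In the mm10 (GRCm38) annotation of GENCODE M21, Kcnq1ot1 lies at chr7:143203458-143296549 on the minus strand as 1 exon of 93.1 kb. Malat1 (chr19:5795690-5802672) and Neat1 (chr19:5824708-5845478) are neighbours on the minus strand, with longest transcripts of 6.98 and 20.8 kb. Tug1 spans chr11:3639785-3649673 on the minus strand with a longest transcript of 6.72 kb. Meg3 (chr12:109541001-109571726), Rian (chr12:109603940-109661716) and Mirg (chr12:109729764-109749460) follow each other on the plus strand, and 2, 3 and 14 annotated microRNA genes and, in Rian, 11 small nucleolar RNA genes lie inside them. Exons of Kcnq1ot1, Tug1, Meg3 and Malat1 overlap annotated exons of genes on the other strand, by 121 bases with Kcnq1 and 119 to 460 bases with 4 small RNA models (Gm27389, Gm27395, Gm27539 and Gm27803), 483 with Morc2a, 1228 with Gm26906 and 453 with Gm37376. The P-body and cytoplasm counts were not stated to use strand, so their reads there could not be assigned to either partner, whereas the polysome and total libraries were made with a directional kit.

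The 3′ ends of Neat1 and Kcnq1ot1 are shown because NUDT21, the factor knocked down, is a subunit of cleavage factor Im, which binds the letters TGTA (UGUA in RNA) near poly(A) sites. Capitals mark TGTA and the poly(A) signal AATAAA on the transcript strand in the last 100 bases of each transcript. These are the ends of the short Neat1-202 (chr19:5842307-5842406, 3004 bases), the long Neat1-201 (chr19:5824708-5824807, 20771 bases) and Kcnq1ot1-201 (chr7:143203458-143203557, 93092 bases), all on the minus strand.
Neat1-202: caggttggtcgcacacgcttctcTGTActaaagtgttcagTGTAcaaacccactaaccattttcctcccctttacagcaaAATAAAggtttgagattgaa
Neat1-201: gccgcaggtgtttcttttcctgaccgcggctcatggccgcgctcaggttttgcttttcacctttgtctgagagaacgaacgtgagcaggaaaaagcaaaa
Kcnq1ot1-201: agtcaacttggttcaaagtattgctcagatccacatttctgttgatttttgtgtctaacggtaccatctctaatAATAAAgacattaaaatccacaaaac
The short Neat1 end holds 2 TGTA and 1 AATAAA, the long Neat1 end holds neither, and the Kcnq1ot1 end holds 1 AATAAA and no TGTA. Of 139316 annotated transcript ends of the same length, 37.3% hold TGTA and 28.9% hold AATAAA.

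Runs of A inside a transcript are shown because the P-body and cytoplasm libraries were primed with oligo(dT). Capitals mark the longest run of A, 12 in Malat1-201 (chr19:5795968-5796079) and 41 in Kcnq1ot1-201 (chr7:143226915-143227015), both on the minus strand.
Malat1-201: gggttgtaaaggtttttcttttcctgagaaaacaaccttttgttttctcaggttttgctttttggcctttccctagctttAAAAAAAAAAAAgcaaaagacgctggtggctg
Kcnq1ot1-201: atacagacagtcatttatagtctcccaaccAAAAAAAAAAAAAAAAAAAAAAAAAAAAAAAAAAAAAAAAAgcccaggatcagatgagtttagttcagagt
The Kcnq1ot1 transcript holds 10 runs of at least 10 A, Meg3-209 holds 6, and Malat1-201 and Rian-201 hold 1 each, whereas the longest transcripts of Neat1, Tug1 and Mirg hold none. Such a run is found in 7.18% of 141767 annotated transcripts.

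P-body and cytoplasm libraries held 6769731 to 31185874 reads, Ago2 KO libraries 15624401 to 17486268, and polysome and total libraries 13308782 to 29362195. Levels are CPM, a gene's reads scaled to 1 common library total. The knockdown was visible in its target, with Nudt21 at 107 and 115 CPM in control and 5.51 and 5.96 CPM in knockdown P-body libraries, and Ago2 stood at 2.57 to 4.52 CPM in the KO libraries. Pluripotency markers (Pou5f1, Sox2, Nanog, Dppa5a) summed to 3251 to 6273 CPM in naive libraries and to at most 0.869 CPM in MEF libraries, and fibroblast markers summed to 7961 to 25294 CPM in MEF libraries and to at most 3.08 CPM in naive libraries. The primed markers Fgf5, Otx2, Dnmt3b and Pou3f1 summed to 409 to 706 CPM in primed libraries and also to 43.4 to 81.3 CPM in naive libraries.

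**Figure D1:**
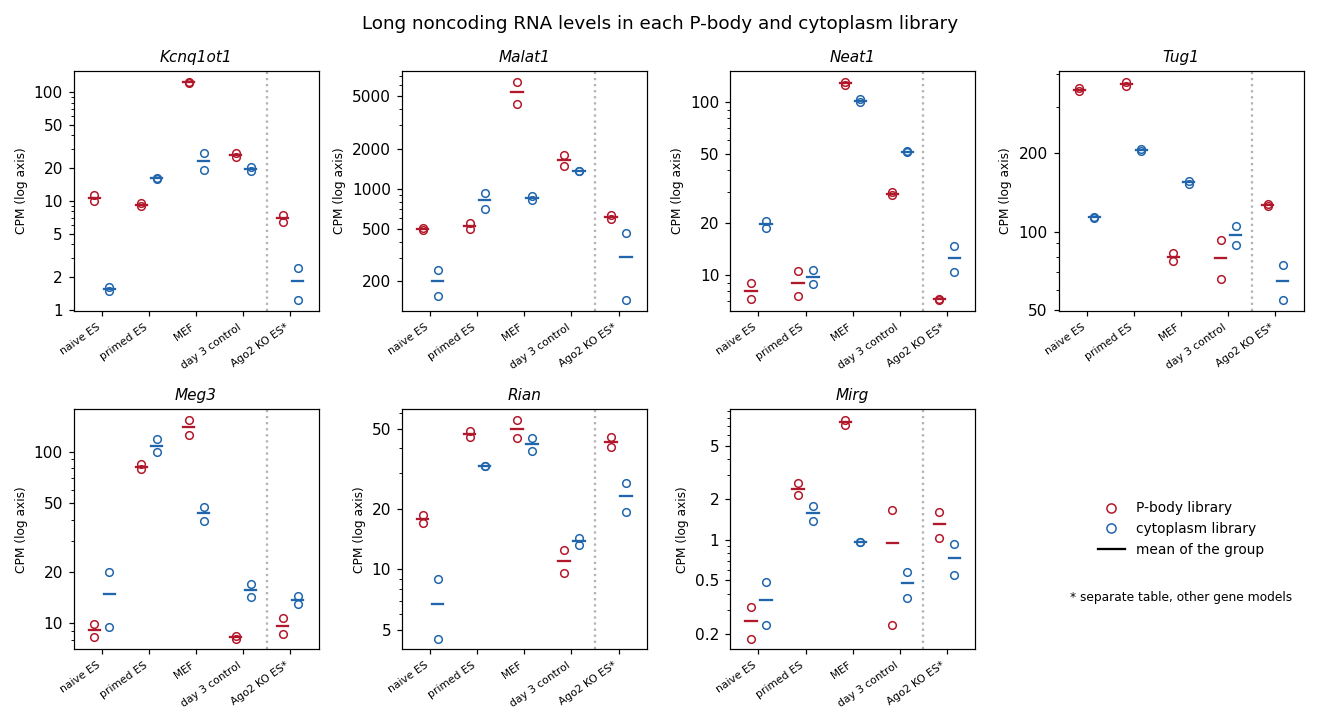
Level of each long noncoding RNA in every P-body (red) and cytoplasm (blue) library by cell type, in CPM on a log axis; circles are libraries (2 per group), bars are group means, and the Ago2 KO libraries right of the dotted line come from a separate table. Kcnq1ot1 in MEF P-body libraries (120 and 124 CPM) stands above all other libraries, and its naive cytoplasm libraries are at 1.49 and 1.62 CPM.

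Per kilobase of the longest transcript, Malat1 and Tug1 were the most abundant members in naive P-body libraries, at means of 71.2 and 52.0 CPM per kb. Rian followed at 2.20, Meg3 at 0.626, Neat1 at 0.389, Kcnq1ot1 at 0.115 and Mirg at 0.0659 CPM per kb. In MEF P-body libraries the order of these per-kilobase levels was Malat1 (771), Tug1 (11.9), Meg3 (9.55), Rian (6.19), Neat1 (6.13), Mirg (1.94) and Kcnq1ot1 (1.31). The gene models behind the counts may differ in length from these transcripts.

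In naive ES cells, 4 members were higher in P-bodies than in the cytoplasm (Kcnq1ot1, Tug1, Rian and Malat1) and 1 was lower (Neat1). A gene was called when edgeR's quasi-likelihood test gave a Benjamini-Hochberg adjusted p under 0.05 over all genes. These 5 of 7 stand beside 38% of 15630 genes called, 22.6% higher and 15.4% lower, and the median log2 fold change of the 7 was 1.54 beside −0.06 over all genes. Over all genes the calls were 3528 higher and 2413 lower, and 2876 and 4055 with plain library totals in place of TMM scaling. Kcnq1ot1 was at 11.3 and 10.03 CPM in P-body libraries and 1.49 and 1.62 CPM in cytoplasm libraries, with no overlap (log2 fold change 2.99, SE 0.26, adjusted p = 0.000963). Its cytoplasm value rests on 38.5 reads over both libraries. Tug1 stood at 344 and 355 CPM against 114 and 113 CPM (log2 1.85, SE 0.10, adjusted p = 0.000414). Malat1, the speckle RNA, measured 507 and 487 CPM against 155 and 245 CPM (log2 1.54, SE 0.20, adjusted p = 0.00342).

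Of the Dlk1-Dio3 RNAs in naive cells, Rian was at 18.7 and 16.95 CPM in P-body and 8.93 and 4.54 CPM in cytoplasm libraries (log2 1.61, SE 0.36, adjusted p = 0.0199). Meg3 overlapped between fractions, at 8.36 and 9.87 against 19.9 and 9.57 CPM (log2 −0.48, SE 0.40, adjusted p = 0.379), and Mirg had 15 reads in all 4 libraries. Of these 3 RNAs Rian was thus the one called, while the reads of Mirg were too few to tell its direction. Neat1 was the only member called lower, at 8.91 and 7.24 CPM in P-body and 20.5 and 18.6 CPM in cytoplasm libraries (log2 −1.06, SE 0.20, adjusted p = 0.0127). Without P-body replicate 1 or 2, the calls of Neat1 (adjusted p = 0.0871 and 0.158) and Rian (adjusted p = 0.109 and 0.0819) were lost, and without cytoplasm replicate 2 Meg3 was called lower (log2 −0.92).

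In primed ES cells, Kcnq1ot1 and Malat1 lay on the cytoplasm side. Of the 7 members, 2 were called higher in P-bodies (Tug1 and Rian) and 3 lower (Kcnq1ot1, Malat1 and Meg3), beside 50.7% of 16177 genes called, 26.5% higher and 24.2% lower, with medians of −0.07 for the members and 0.00 for all genes. Kcnq1ot1 was at 9.58 and 8.88 CPM in P-body and 16.2 and 16.0 CPM in cytoplasm libraries (log2 −0.77, SE 0.15, adjusted p = 0.00121). Malat1 was at 547 and 496 against 934 and 700 CPM (log2 −0.61, SE 0.10, adjusted p = 0.000206). For both RNAs all P-body libraries were below all cytoplasm libraries.

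Tug1 in primed cells was at 362 and 375 CPM in P-body and 203 and 207 CPM in cytoplasm libraries (log2 0.88, SE 0.05, adjusted p = 5.24e-08). Rian was at 45.6 and 48.9 against 32.5 and 32.7 CPM (log2 0.57, SE 0.10, adjusted p = 0.000402), and Meg3 at 84.6 and 78.7 against 98.8 and 118 CPM (log2 −0.38, SE 0.09, adjusted p = 0.00475). Tug1 and Rian were thus called higher in P-bodies in both ES states. Neat1 overlapped between fractions at 7.50 to 10.6 CPM, and Mirg (1.37 to 2.62 CPM) did not pass (adjusted p = 0.182). In a fit over all groups of the table, the calls of Meg3 (adjusted p = 0.352) and Rian (adjusted p = 0.0995) were lost.

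In MEFs, 5 members were higher in P-bodies, with Mirg, Malat1 and Kcnq1ot1 raised most, and Tug1 was lower. These 6 of 7 stand beside 55.3% of 16198 genes called, 26.6% higher and 28.7% lower, with medians of 1.66 and 0.03. Malat1 was at 4376 and 6391 CPM in P-body and 821 and 882 CPM in cytoplasm libraries (log2 2.64, SE 0.15, adjusted p = 3.74e-06). Kcnq1ot1 was at 124 and 120 against 19.3 and 27.3 CPM (log2 2.38, SE 0.15, adjusted p = 4.76e-06). Mirg, the microRNA host, was at 7.11 and 7.73 CPM against 0.962 CPM in both cytoplasm libraries (log2 2.92, SE 0.25, adjusted p = 1.40e-05).

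Meg3 in MEFs was at 125 and 153 CPM in P-body and 39.6 and 47.6 CPM in cytoplasm libraries (log2 1.66, SE 0.13, adjusted p = 1.03e-05). Neat1 was at 130 and 124 against 99.2 and 103 CPM (log2 0.31, SE 0.09, adjusted p = 0.0145), and Rian at 55.2 and 44.9 against 38.7 and 44.9 CPM (log2 0.24, SE 0.13, adjusted p = 0.143). Among the Dlk1-Dio3 RNAs, Rian had the smallest log2 fold change in MEFs and the largest in naive cells. Tug1 was at 82.6 and 77.4 CPM in P-body and 156 and 152 CPM in cytoplasm libraries (log2 −0.96, SE 0.09, adjusted p = 2.62e-05). The Neat1 call was lost without cytoplasm replicate 1 (adjusted p = 0.143), without cytoplasm replicate 2 (adjusted p = 0.0994) and in a fit over all groups (adjusted p = 0.124).

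Markers of other cell types moved with the MEF fractions. All 5 lung epithelium markers (Sftpc, Scgb1a1, Sftpb, Sftpa1 and Scgb3a2) were detected in MEF P-body libraries, at a summed 5.93 CPM in replicate 1 and 88.7 CPM in replicate 2, and all were at 0 in MEF cytoplasm libraries. The 3 red blood cell markers summed to 0.474 and 2.90 CPM and to 0, and the 5 fibroblast markers to 7961 and 8716 CPM in P-body and 25294 and 23040 CPM in cytoplasm libraries. Malat1 was the member that differed most between the P-body replicates. Without P-body replicate 2, the log2 fold changes were 2.36 for Malat1, 2.41 for Kcnq1ot1, 1.52 for Meg3 and 2.87 for Mirg, all still called, and Rian was called at 0.40 (adjusted p = 0.00598). By the study's methods the cytoplasm was sampled from the fraction that was sorted, and where these marker RNAs came from was not tested. Their part in the remaining enrichment was not tested either.

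Other noncoding RNAs showed how far these members were alike. Over all genes tested, 22.6% were called higher and 15.4% lower in naive P-bodies, 26.5% and 24.2% in primed and 26.6% and 28.7% in MEF P-bodies. Of 18 other nuclear long noncoding RNAs, 10 were tested in naive cells with 3 higher and 0 lower (median log2 0.70), 15 in primed cells with 3 higher and 2 lower (median 0.42), and 15 in MEFs with 10 higher and 1 lower (median 1.24). Of 11 cytoplasmic or ribosome-associated noncoding RNAs, 4 of 10 tested rose and 0 fell in naive cells (median 0.41), 1 rose and 8 of 10 fell in primed cells (median −0.89), and 9 rose and 2 of 11 fell in MEFs (median 1.24). Noncoding RNAs named for the cytoplasm and for the nucleus thus had the same median in MEF P-bodies. Snhg14, a host of small nucleolar RNAs in another imprinted domain, was higher in naive (log2 1.74) and primed (0.92) P-bodies, and so was Oip5os1 (2.07 and 0.71). In MEFs the cytoplasmic H19 was lower (−2.69), as was 2900097C17Rik (−1.33), while the small nucleolar RNA hosts Snhg5 (1.71) and Snhg1 (1.59) were higher, and of the nuclear list Pvt1 was higher (1.16) and Peg13 lower (−1.40).

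The messenger RNAs around the same loci and bodies were a further comparison. Their counts stand beside the same shares of all genes, 22.6% higher and 15.4% lower in naive, 26.5% and 24.2% in primed and 26.6% and 28.7% in MEF P-bodies. Of the 9 protein-coding genes of the Kcnq1ot1 domain, 1 was higher and 1 lower of 9 tested in naive cells, 2 and 2 of 9 in primed cells, and 2 and 2 of 7 in MEFs. Cdkn1c, a cell cycle inhibitor of that domain, was higher in primed P-bodies (log2 0.73), while Phlda2 was lower there (−1.79) and Nap1l4 was higher in naive (0.33) and lower in MEF P-bodies (−0.79). Of Dlk1, Rtl1 and Dio3, 2 tested genes were lower in naive P-bodies (Dlk1 and Dio3), 1 of 3 was lower in primed P-bodies (Dlk1), and 1 was higher (Rtl1) and 1 lower (Dio3) in MEFs. Of 11 mRNAs of paraspeckle proteins, the partners of Neat1, 3 were higher and 3 lower in naive, 2 and 6 in primed, and 1 and 7 in MEF P-bodies. Matr3 was higher in naive (1.63) and primed (0.70) P-bodies and lower in MEF P-bodies (−0.28).

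At day 3 of induction with the control shRNA, none of the 7 members was called, beside 0.646% of 15786 genes (0.196% higher and 0.45% lower). At an unadjusted p under 0.05, 3 members (Kcnq1ot1, Neat1 and Meg3) and 3899 genes passed, and DESeq2 called 2 members and 2105 genes. Neat1 was at 29.8 and 28.7 CPM in P-body and 50.9 and 51.6 CPM in cytoplasm libraries (log2 −0.79, SE 0.13, adjusted p = 0.0561; DESeq2 adjusted p = 0.00174). Meg3 was at 8.43 and 8.15 against 14.3 and 16.9 CPM (log2 −0.90, SE 0.20, adjusted p = 0.0817; DESeq2 adjusted p = 0.0275). Kcnq1ot1 was at 27.5 and 25.4 against 20.4 and 18.7 CPM (log2 0.45, SE 0.16, adjusted p = 0.155) and Malat1 at 1474 and 1798 against 1361 and 1350 CPM (log2 0.29, SE 0.13, adjusted p = 0.233). Rian was at 12.4 and 9.65 against 13.3 and 14.4 CPM (log2 −0.31, SE 0.21, adjusted p = 0.397), and Tug1 and Mirg overlapped between fractions. Without P-body replicate 1 all 7 members were called and without replicate 2 there were 3, in fits whose spread then came from the cytoplasm libraries alone.

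In Ago2 KO ES cells, whose counts came from another set of gene models and whose library preparation is not given in the sources used here, Kcnq1ot1 was the member called, beside 6.51% of 16808 genes, 5.47% higher and 1.05% lower. With the replicate number as a block, 5 members and 4178 genes were called in place of 1 and 1095. Same-numbered P-body and cytoplasm libraries of these cells varied together (r = 0.542), so the fit without a block may call too few. Kcnq1ot1 was at 6.34 and 7.43 CPM in P-body and 1.22 and 2.41 CPM in cytoplasm libraries (log2 1.87, SE 0.42, adjusted p = 0.0321). Tug1 was at 125 and 128 against 54.5 and 74.3 CPM (log2 0.92, SE 0.28, adjusted p = 0.0864) and Rian at 40.4 and 45.4 against 19.3 and 26.9 CPM (log2 0.85, SE 0.27, adjusted p = 0.102). Neat1 was at 7.10 and 7.26 against 10.4 and 14.7 CPM (log2 −0.85, SE 0.30, adjusted p = 0.126). Malat1 had the widest cytoplasm spread, 462 and 144 CPM, beside 595 and 630 CPM in P-body libraries (log2 1.02, SE 0.45, adjusted p = 0.207). These 5 and Meg3 (log2 −0.54) had the signs of the naive cells. Mirg did not, at 0.78 on 67 reads here and −0.26 on 15 reads in naive cells. Ago2 KO and naive counts differ in gene models and may differ in library preparation, and the difference between them was not tested. The Kcnq1ot1 call was lost with DESeq2 size factors (adjusted p = 0.0638) and without P-body replicate 2 (adjusted p = 0.0880). Without cytoplasm replicate 1, 5 members were called (Kcnq1ot1, Malat1 and Tug1 higher, Neat1 and Meg3 lower), and without cytoplasm replicate 2, 3 were called (Kcnq1ot1, Tug1 and Rian).

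**Figure D2:**
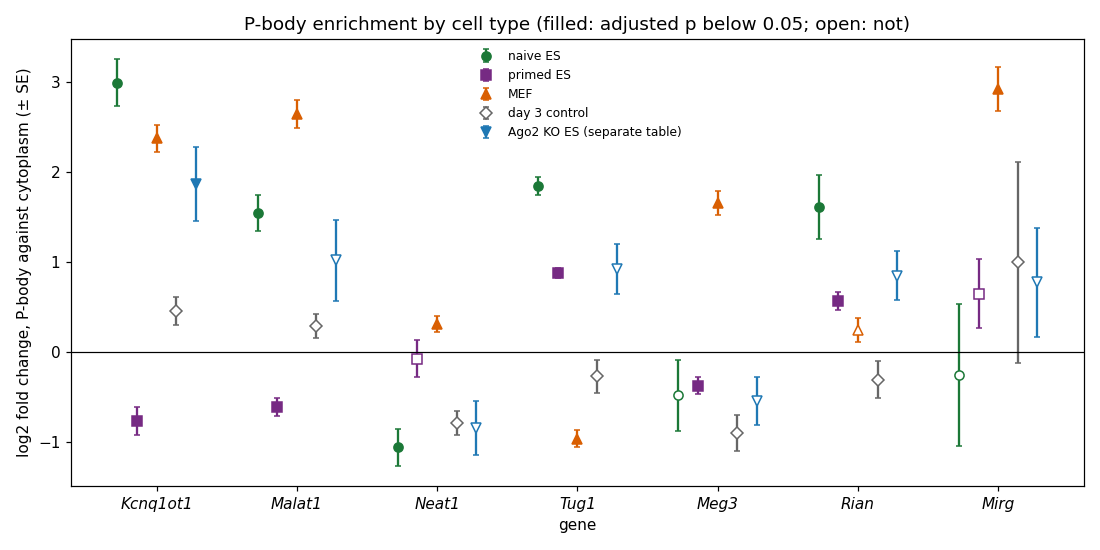
Log2 fold change of P-body against cytoplasm for each long noncoding RNA (columns) in 5 cell types (symbols), with the SE of the edgeR fit as error bars; filled symbols have an adjusted p under 0.05. Kcnq1ot1 and Malat1 are above 0 in naive cells and MEFs and below 0 in primed cells, and Tug1 is above 0 in both ES states and at −0.96 in MEFs.

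The enrichments themselves were compared between cell types by an interaction term, in fits that share the naive or the MEF libraries with the comparisons above. Between naive and primed cells, 4 of 7 members differed, 3 with the higher enrichment in naive cells, beside 25.3% of 17199 genes (13.9% higher and 11.4% lower). The difference in log2 enrichment was 3.62 for Kcnq1ot1 (SE 0.27, adjusted p = 0.000154), 2.01 for Malat1 (SE 0.26, adjusted p = 0.00104) and 0.83 for Tug1 (SE 0.11, adjusted p = 0.00108). Neat1 differed the other way, by −1.12 (SE 0.31, adjusted p = 0.0286). Rian (0.90, adjusted p = 0.0944), Meg3 (−0.24, adjusted p = 0.711) and Mirg (−1.03, adjusted p = 0.394) did not pass. The Neat1 call was lost without naive P-body replicate 1 or 2 (adjusted p = 0.0640 and 0.118), primed P-body replicate 2 (0.187) or primed cytoplasm replicate 1 or 2 (0.0813 and 0.108). Rian was called without naive cytoplasm replicate 1 (log2 1.51) and by DESeq2 (0.98), and Meg3 without naive cytoplasm replicate 2 (−0.69).

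Between naive cells and MEFs, 6 members differed, beside 41.3% of 18143 genes (21.5% higher and 19.8% lower). Tug1 was more enriched in naive P-bodies, by 2.62 (SE 0.14, adjusted p = 6.60e-06), and so was Rian, by 1.18 (SE 0.36, adjusted p = 0.0245). Mirg (−3.36, SE 0.74, adjusted p = 0.00464), Meg3 (−2.32, SE 0.41, adjusted p = 0.00127), Neat1 (−1.56, SE 0.18, adjusted p = 0.000113) and Malat1 (−1.29, SE 0.29, adjusted p = 0.00550) were more enriched in MEF P-bodies. Rian and its neighbours Meg3 and Mirg thus differed in opposite directions between the same cell types. Kcnq1ot1 did not pass (0.43, SE 0.31, adjusted p = 0.311). The cytoplasmic list had 2 higher and 7 lower of 11 tested (median −1.16), and the other nuclear list 1 and 3 of 16 (median −0.77), beside a member median of −1.29. Without MEF P-body replicate 2, the library with the most lung marker RNA, the calls of Malat1 (−0.77, adjusted p = 0.0607) and Rian (1.25, adjusted p = 0.0580) were lost. Rian was also lost without naive P-body replicate 1 (adjusted p = 0.100) or 2 (0.0719) and Mirg without naive cytoplasm replicate 2 (0.0519), and Kcnq1ot1 was called without MEF cytoplasm replicate 1 (0.89).

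Between day 3 control cells and MEFs, 5 members differed, beside 14.7% of 17488 genes (9.59% higher and 5.13% lower), and 4 of them were less enriched at day 3. The other nuclear list had 0 higher and 3 lower of 16 tested (median −1.47), and the cytoplasmic list 1 and 2 of 11 (median −0.37), beside a member median of −1.88. Over all genes 1677 calls were higher and 898 lower, and with plain library totals 1294 and 1143. Their sum of 2575 ranged from 259 without day 3 cytoplasm replicate 2 to 5546 without day 3 P-body replicate 2. The day 3 control libraries are also the reference for the knockdown that helped to choose Kcnq1ot1, so its p-value here is not independent of that choice. The differences were −1.88 for Kcnq1ot1 (SE 0.22, adjusted p = 0.00112), −2.31 for Malat1 (SE 0.23, adjusted p = 0.000594), −2.51 for Meg3 (SE 0.22, adjusted p = 0.000308) and −1.06 for Neat1 (SE 0.15, adjusted p = 0.00233). Tug1 differed by 0.73 in the other direction (SE 0.21, adjusted p = 0.0410), a call lost in all 8 fits without 1 library except that without day 3 P-body replicate 2, and lost with plain library totals (adjusted p = 0.0753). In those 7 fits its adjusted p was 0.0642 to 0.266. Rian was called without day 3 P-body replicate 1 (−0.75) and Mirg without day 3 P-body replicate 2 (−3.93).

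In the cytoplasm, the members differed widely in level between cell types. Of the 7 members, 1 was higher and 5 were lower in naive than in primed cytoplasm, beside 43.8% of 16125 genes (22.1% higher and 21.6% lower). These were 3569 and 3487 genes, and with plain library totals 2664 and 4349. The lower members were Kcnq1ot1 (log2 −3.17, SE 0.27), Meg3 (−2.67, SE 0.36), Rian (−2.06, SE 0.35), Malat1 (−1.84, SE 0.23) and Tug1 (−0.66, SE 0.11), with adjusted p from 0.000737 to 0.00588. Neat1 was higher in naive cytoplasm (1.21, SE 0.22, adjusted p = 0.00780). Of the other nuclear list 0 were higher and 8 lower of 13 tested (median log2 −1.45), and of the cytoplasmic list 0 and 5 of 10 (median −0.66), beside a member median of −1.89. Mirg (−1.89, adjusted p = 0.0524) did not pass and was called without naive cytoplasm replicate 2 (−2.45). Without primed cytoplasm replicate 1, the calls of Neat1 (adjusted p = 0.0723), Tug1 (0.0795) and Rian (0.0508) were lost, and without replicate 2 those of Neat1 (0.105) and Tug1 (0.0824).

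Against MEF cytoplasm, all 7 members were lower in naive cytoplasm, beside 71.8% of 16871 genes (36% higher and 35.9% lower). The other noncoding lists moved likewise. The cytoplasmic list had 0 higher and 10 lower of 11 tested (median log2 −1.67), and the other nuclear list 3 and 8 of 14 (median −2.57), beside a member median of −2.35. The log2 fold changes were −4.15 for Kcnq1ot1 (SE 0.28), −2.87 for Rian (SE 0.34), −2.62 for Neat1 (SE 0.13), −2.35 for Malat1 (SE 0.21), −1.80 for Meg3 (SE 0.37), −1.66 for Mirg (SE 0.56) and −0.70 for Tug1 (SE 0.10). The adjusted p was at most 0.00743 except for Mirg (0.0427), which rests on 68 reads and was lost without naive cytoplasm replicate 1 (adjusted p = 0.149) and without either MEF cytoplasm library (0.150 and 0.145). At day 3, 5 members were lower than in MEF cytoplasm and Malat1 was higher (log2 0.51, SE 0.05, adjusted p = 2.33e-07), beside 69.3% of 16108 genes (35.5% higher and 33.7% lower). Rian (−1.75), Meg3 (−1.64), Neat1 (−1.14) and Tug1 (−0.83) were lower with adjusted p of at most 7.80e-08. The cytoplasmic list had 1 higher and 8 lower of 11 tested there (median −0.55), and the other nuclear list 4 and 2 of 16 (median 0.09). Kcnq1ot1 was called at −0.41 (adjusted p = 0.0165) although its libraries overlapped (18.7 to 20.4 against 19.3 and 27.3 CPM), and the call was lost with plain library totals (adjusted p = 0.130), without MEF cytoplasm replicate 2 (0.304) and without day 3 cytoplasm replicate 2 (0.110).

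Of the protein-coding genes of the Kcnq1ot1 domain, 7 of 7 tested were higher in day 3 than in MEF cytoplasm, beside the 35.5% of all genes called higher, among them Cdkn1c (log2 2.25) and Cd81 (0.98). In naive against MEF cytoplasm, 6 of 9 were higher, beside 36% of all genes, and 1 was lower (Cd81, −1.27). Against primed cytoplasm, 2 of 9 were higher in naive cells, beside 22.1% of all genes, Tssc4 (0.88) being the more abundant, and Cdkn1c was lower (−3.04), as was Kcnq1ot1 (−3.17). Differences between these genes and Kcnq1ot1 were not tested.

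The order of levels over cell types differed between fractions. In P-body libraries, Kcnq1ot1 was highest in MEFs (120 to 124 CPM), followed by day 3 (25.4 to 27.5). Naive (10.03 to 11.3) and primed cells (8.88 to 9.58) lay close together, on 121.5 and 126 against 115 and 105 reads. Differences in level between P-body libraries of these cell types were not tested. In cytoplasm libraries MEFs (19.3 to 27.3) and day 3 (18.7 to 20.4) overlapped, followed by primed (16.0 to 16.2) and naive cells (1.49 to 1.62). For Malat1 the P-body order was MEFs, day 3, then primed and naive cells, which overlapped (487 to 547 CPM), and in the cytoplasm day 3 came first (1350 to 1361) while MEFs and primed cells overlapped (700 to 934). Tug1 was highest in primed and naive P-bodies (344 to 375 CPM), and MEFs and day 3 overlapped there (65.9 to 92.7 CPM). Meg3 was lowest in naive and day 3 P-bodies, at 8.15 to 9.87 CPM with overlap, and highest in MEF P-bodies.

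Nudt21 knockdown at day 3 moved Kcnq1ot1 in opposite directions in the 2 fractions. In the cytoplasm it was at 20.4 and 18.7 CPM with the control shRNA and 49.8 and 50.5 CPM with the Nudt21 shRNA, a log2 fold change of 1.34. In P-bodies it was at 27.5 and 25.4 CPM with the control and 13.03 and 11.95 CPM after knockdown, a log2 fold change of −1.09. Kcnq1ot1 was therefore 1.35 times as high in P-bodies as in cytoplasm in control cells and 4.02 times lower after knockdown, by the ratio of mean CPM, with no overlap in either pair. The enrichment differed by −2.42 on the log2 scale between knockdown and control. These values helped to choose Kcnq1ot1, so the pattern is a description, and none of the members was tested here.

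Malat1 after knockdown was lower in both fractions, at 621 and 626 CPM in P-body and 960 and 960 CPM in cytoplasm libraries (log2 −1.40 and −0.51 against the control), and like Kcnq1ot1 it lay on the cytoplasm side in every pair of libraries. Neat1, whose short form needs the proximal poly(A) site, was at 77.5 and 68.6 CPM in knockdown cytoplasm against 50.9 and 51.6 CPM in control (log2 0.50) and at 19.7 and 20.3 against 29.8 and 28.7 CPM in P-bodies (log2 −0.55). Gene counts do not separate its short and long forms. Meg3 was at 0.812 and 1.75 CPM in knockdown P-bodies and 4.39 and 6.43 CPM in cytoplasm (log2 −2.70 and −1.57 against the control). Rian had log2 fold changes of −0.64 in P-bodies and −0.96 in the cytoplasm, while Tug1 had positive values in both (0.92 and 0.60). Mirg had 9 reads over the 4 knockdown libraries.

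Marker RNAs moved with these values. In cytoplasm libraries, the 5 fibroblast markers summed to 4565 to 4644 CPM with the control and 1519 to 1552 CPM with the Nudt21 shRNA. The 4 pluripotency markers summed there to 322 to 332 and 709 to 823 CPM, nearly all from Pou5f1 (means of 187 and 420 CPM) and Sox2 (140 and 346 CPM), which are also genes of the inducible cassette. Nanog and Dppa5a were at or near 0 in these cytoplasm libraries (means of at most 0.326 CPM), and in P-bodies they were lower after knockdown, with means of 0.801 and 0.186 CPM for Nanog and 18.4 and 3.51 CPM for Dppa5a. In P-body libraries the fibroblast sums were 2997 to 3238 and 982 to 1120 CPM. Lung epithelium markers were at most 0.203 CPM in these libraries. The part of these markers in the values of the members was not tested.

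**Figure D3:**
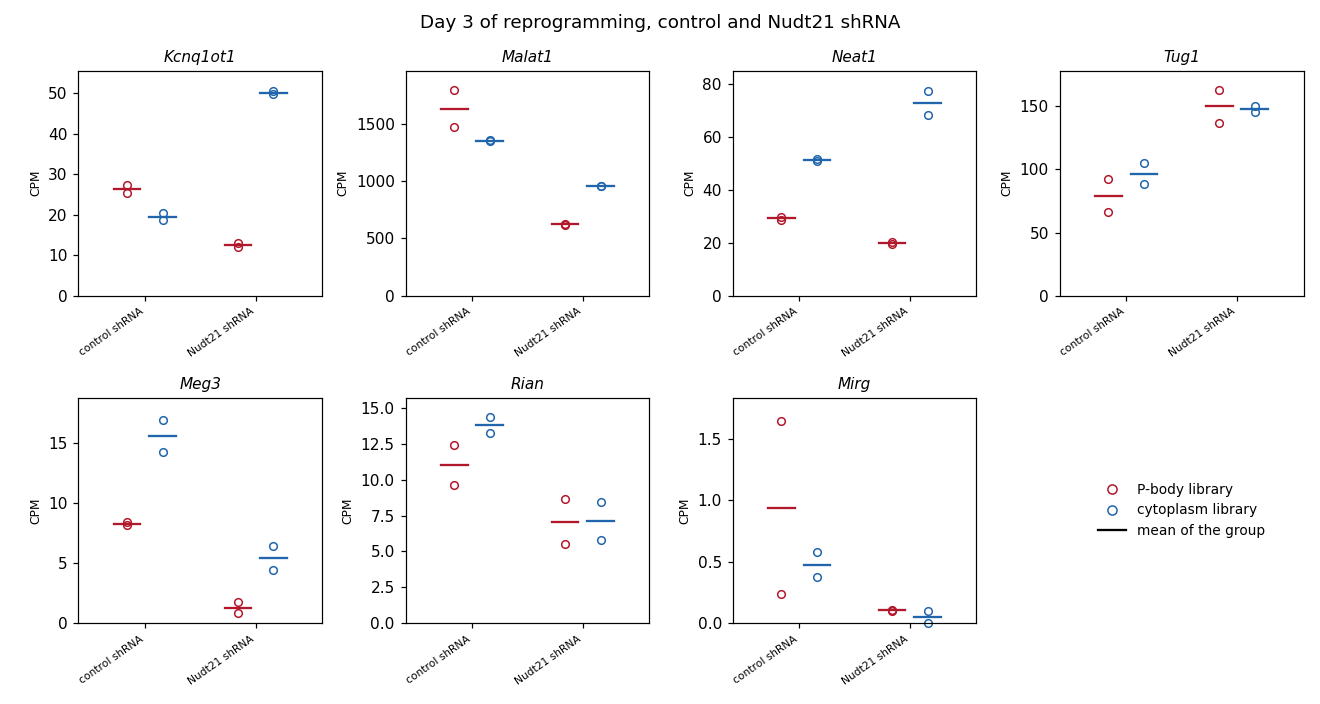
Level of each long noncoding RNA at day 3 with the control or the Nudt21 shRNA in P-body (red) and cytoplasm (blue) libraries, in CPM on a linear axis from 0; circles are libraries (2 per group) and bars are group means. Kcnq1ot1 lies at 49.8 and 50.5 CPM in knockdown cytoplasm and at 11.95 and 13.03 CPM in knockdown P-bodies, and in control cells the P-body libraries are the higher ones.

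The libraries labelled polysome hold RNA from the pooled ribosome-containing fractions of a sucrose gradient, and total libraries hold the lysate before the gradient. By the study's methods that lysate had already been spun, so total RNA here is not RNA of the whole cell. How much RNA of nuclei or P-bodies was left in it was not tested. In control cells, 2 of 7 members, Meg3 and Tug1, were higher in polysome than in total libraries and none was lower, beside 42.9% of 15411 genes (18.8% higher and 24.1% lower). These were 2891 and 3719 genes, and with plain library totals 5167 and 2751. Meg3 was at 153, 167 and 129 CPM in polysome and 102, 97.6 and 93.1 CPM in total libraries (log2 0.45, SE 0.08, adjusted p = 0.000121). Tug1 was at 174, 184 and 161 against 127, 123 and 104 CPM (log2 0.38, SE 0.07, adjusted p = 0.000451). Neither RNA overlapped between fractions. Kcnq1ot1, Malat1, Neat1 and Mirg overlapped, and Rian (158, 174 and 158 against 140, 137 and 125 CPM) did not pass (log2 0.12, SE 0.07, adjusted p = 0.162). With plain library totals Rian was called (0.29, adjusted p = 0.00172), and without control polysome replicate 2 Kcnq1ot1 was called lower (−0.55).

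After DDX6 degradation, 5 of 7 members were higher in polysome libraries and none was lower, beside 50.9% of 15638 genes (24% higher and 26.8% lower). These were 3759 and 4193 genes, and with plain library totals 6133 and 2994. Tug1 was at 153, 185 and 182 CPM in polysome and 92.5, 89.0 and 97.8 CPM in total libraries (log2 0.71, SE 0.06, adjusted p = 4.36e-10). Meg3 was at 142, 182 and 163 against 83.8, 88.7 and 93.0 CPM (log2 0.69, SE 0.06, adjusted p = 2.77e-09). Rian (0.35, SE 0.05, adjusted p = 1.28e-06), Malat1 (0.29, SE 0.07, adjusted p = 0.00251) and Neat1 (0.17, SE 0.05, adjusted p = 0.00926) were also called. The Neat1 call was lost without degron polysome replicate 2 (adjusted p = 0.103), without degron total replicate 1 (0.0791) and in the fit over all groups (0.114), that of Malat1 with DESeq2 (adjusted p = 0.0931), and Kcnq1ot1, at 3.92, 4.22 and 3.60 against 1.99, 3.33 and 2.86 CPM without overlap (0.33, adjusted p = 0.135), was called without degron total replicate 2 (0.49) and with plain library totals (0.51).

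The change of polysome occupancy between degron and control was called for none of the 7 members and for 0% of 16345 genes by edgeR. At an unadjusted p under 0.05, 844 genes passed, 4 members among them (Kcnq1ot1, Tug1, Meg3 and Rian), and DESeq2 called 4 genes and none of the members. All 7 differences were positive, from 0.09 for Mirg to 0.61 for Kcnq1ot1 (SE 0.27), with 0.32 for Tug1 (SE 0.10) and a median of 0.23 beside −0.01 over all genes, and every adjusted p was 0.879 or more. Of the other nuclear list 10 of 13 tested were positive too (median 0.18), and of the cytoplasmic list 7 of 11 (median 0.05). Mirg turned to −0.06 without control polysome replicate 1, and Tug1 was called without control total replicate 3 (0.41, adjusted p = 0.0460). More members passed after DDX6 degradation than in the control, but the difference did not pass its own test.

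Of the levels themselves, Neat1 changed in both fractions with DDX6 degradation. In total libraries it was at 147, 156 and 165 CPM with dTAG-13 and 119, 120 and 102 CPM without (log2 0.46, SE 0.07, adjusted p = 0.00637), and in polysome libraries at 184, 216 and 199 against 133, 155 and 109 CPM (log2 0.58, SE 0.08, adjusted p = 0.00181). All degron libraries were above all control libraries in both fractions. Tug1 was lower in total libraries (log2 −0.34, SE 0.07, adjusted p = 0.0272), and Kcnq1ot1 did not pass there (log2 −0.53, SE 0.19, adjusted p = 0.144). These are 2 of 7 members in total RNA beside 3.31% of 15380 genes (1.24% higher and 2.07% lower), and 1 of 7 in polysome RNA beside 4.26% of 15625 genes (1.91% higher and 2.36% lower). The Tug1 call was lost without any 1 of the total libraries except control replicate 3 (adjusted p = 0.0691 to 0.161), and that of Neat1 in total RNA without degron replicate 1 (0.0612). Without control replicate 3, Malat1 (−0.39), Meg3 (−0.17) and Rian (−0.14) were called too.

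**Figure D4:**
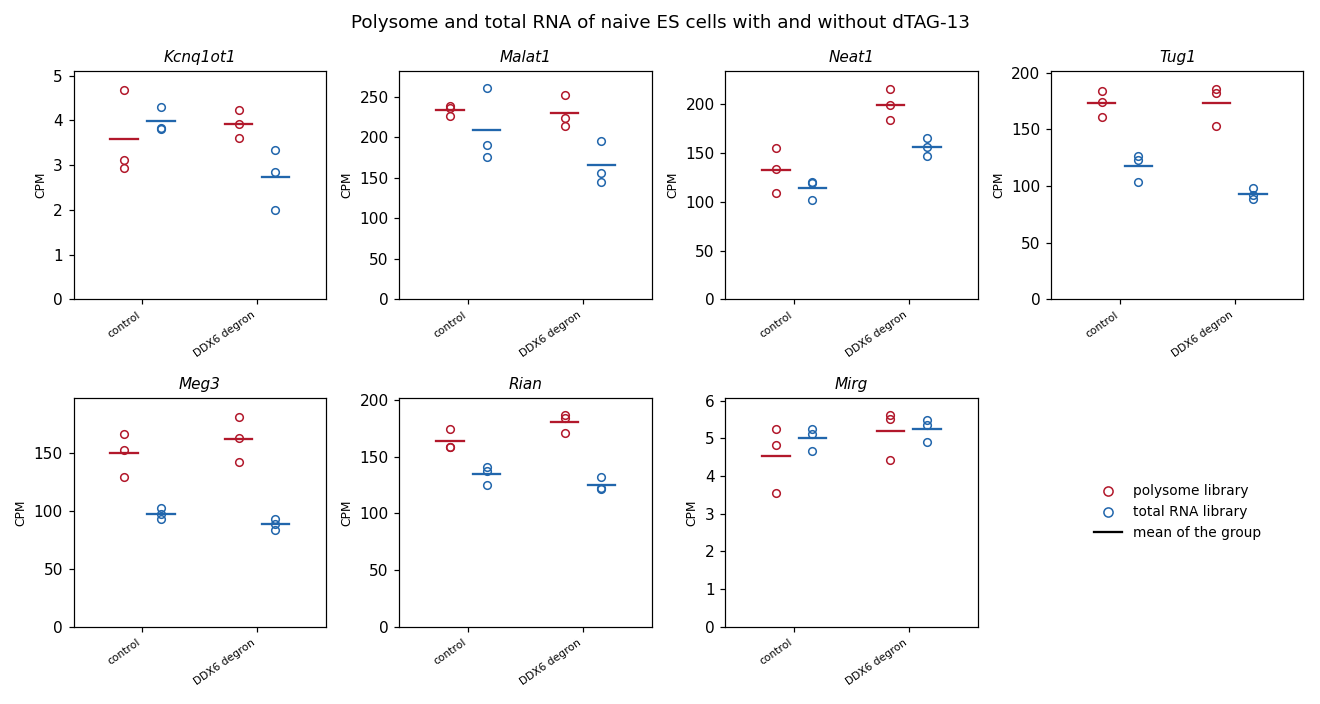
Level of each long noncoding RNA in polysome (red) and total (blue) libraries of control and DDX6 degron ES cells, in CPM on a linear axis from 0; circles are libraries (3 per group) and bars are group means. Tug1 and Meg3 polysome libraries lie above the total libraries in both conditions, and all Neat1 degron libraries lie above the control libraries of the same fraction.

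Among other RNAs in the polysome table, 3 of 11 tested nuclear long noncoding RNAs were higher in polysome libraries of control cells and 0 lower (median log2 0.35), among them Snhg11 (0.77) and Firre (0.54), and 6 of 13 were higher and 0 lower in degron cells (median 0.53). Of the cytoplasmic list, 5 were higher and 1 lower of 11 in control cells (median 0.18) and 6 and 2 in degron cells (median 0.24). Over all genes, 18.8% were higher and 24.1% lower in control cells, and 24% and 26.8% in degron cells. The mRNAs of paraspeckle proteins were mostly lower in polysome libraries, with 1 higher and 10 of 11 lower in both conditions. Among the lower ones was Nono, a core paraspeckle protein (−1.15 in control and −1.22 in degron cells).

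The 7 RNAs did not share 1 pattern over the 20 libraries of the P-body and cytoplasm table. As a description, in log2 CPM over these libraries, which share cell types and preparations, Pearson's r was 0.92 for Kcnq1ot1 with Malat1. It was 0.85 for Meg3 with Rian, 0.85 for Meg3 with Mirg and 0.80 for Rian with Mirg, and −0.69 for Neat1 with Tug1. Among 10267 genes with a mean of at least 10 CPM, the genes with the most similar pattern were Luc7l2 (0.95), Malat1 and Kif2a (0.90) for Kcnq1ot1, and Ninj1 (0.93), Luc7l2 (0.92) and Kcnq1ot1 for Malat1. For Neat1 they were Zzef1, Cd248 and Oaf (0.95, 0.93 and 0.93), and for Tug1 Atp7a, Zfp451 and Ankrd26 (0.97, 0.95 and 0.94). For Meg3 they were Arhgdig, Smad6 and Tmem254a (0.92, 0.91 and 0.91), for Rian Ttc3, Pwwp3b and Rida (0.94, 0.94 and 0.92), and for Mirg Mea1, Pigp and Calm2 (0.95, 0.93 and 0.92).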

How the data were processed

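The deposited files hold expected counts per gene for 36 mouse RNA-seq libraries in 16 groups. The authors made the P-body and cytoplasm counts from oligo(dT)-primed SMART-Seq libraries with HISAT2 and featureCounts on mm10 refGene, and the estimated counts of the polysome and Ago2 KO tables with salmon, the latter with other gene models. Deposited tables with the authors' own fold changes and p-values were not used. Some counts were fractional, so all were rounded to whole numbers. Genes with at least 10 reads over the libraries compared were fitted with edgeR 4.0.16 (R 4.3.3), TMM scaling and glmQLFTest, 1 fit per comparison over the groups compared. Calls used an adjusted p under 0.05 over all genes. SE is the log2 fold change over the root of F. DESeq2 1.42.0, 2 other scalings, 2 other filters, a replicate block, 1 fit over all groups and leaving out each library were alternatives. The fits were tested on simulated data. Depth sets precision: Mirg often had under 100 reads. Replicates of 24 pairs differed by more than sampling noise (chi-square per degree of freedom 1.78 to 306). Numbered replicates were not treated as pairs.

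The members and the gene lists were chosen with earlier results of these data known, so no p-value here is independent support for a list. Named genes were all members, the 3 targeted genes as checks (DDX6 is removed as a protein, so its RNA checks nothing), the 3 genes most correlated with each member, and per list up to 2 called genes in each direction with a mean of at least 10 CPM. Rtl1, Dlk1 and Dio3 and the lower Matr3 in MEFs were named after their values were seen. Sequences are from GENCODE M21. A gene that this rule would name is not reported here.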

Additional observations from a re-analysis of the deposited data

Results flagged for a closer look

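Differences of P-body enrichment between cell types that passed the interaction test are listed here as log2 values. Between naive and primed cells these were Kcnq1ot1 (3.62), Malat1 (2.01), Tug1 (0.83) and Neat1 (−1.12). Between naive cells and MEFs they were Tug1 (2.62), Rian (1.18), Malat1 (−1.29), Neat1 (−1.56), Meg3 (−2.32) and Mirg (−3.36). Between day 3 control cells and MEFs they were Tug1 (0.73), Neat1 (−1.06), Kcnq1ot1 (−1.88), Malat1 (−2.31) and Meg3 (−2.51). Kcnq1ot1 (−2.42) and Malat1 (−0.88) were on the P-body side in every pair of control libraries and on the cytoplasm side in every pair of Nudt21 knockdown libraries. This difference was not tested, and the share of all genes that show it was not counted. In control cells the enrichment of neither RNA was called by edgeR (adjusted p = 0.155 and 0.233). The knockdown values helped to choose Kcnq1ot1, and the day 3 control libraries they are set against also enter its difference between day 3 and MEFs. That test of Kcnq1ot1 is therefore not independent of the choice.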

How the results depend on the processing

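Of the 16 counts of members called, most stayed within 1.5 times under every alternative in which all libraries were kept. In primed cells the count was 3 in a fit over all groups. At day 3 it was 2 with no filter, 2 with DESeq2, 1 with a replicate block and 2 in a fit over all groups. In Ago2 KO cells it was 0 with DESeq2 size factors, 4 with no filter, 2 with DESeq2 and 5 with the replicate block, and in total RNA after DDX6 degradation it was 1 with the block. Without 1 library the count of members ranged from 3 to 6 in naive cells, 0 to 7 at day 3, 0 to 5 in Ago2 KO cells, 3 to 7 for naive against primed cytoplasm, 0 to 1 for occupancy and 0 to 5 for total RNA. Where 1 library remained in a group, it was assumed to vary like the other groups. The causes were not tested beyond the smaller number of libraries.

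P-bodies were sorted from cytoplasm that was also sampled, but no source ties the replicate numbers to the sorts. Numbered replicates were therefore not treated as pairs. Correlations of same-numbered deviations were −0.046 to 0.114 in the P-body conditions other than Ago2 KO and −0.106 to 0.325 in the polysome and total libraries. Of these 12 libraries 6 correlated best with their own number. In Ago2 KO cells the correlation was 0.542, so the fractions varied together by number there, and the fit without a block does not use this. With the block, of 16 counts of members 13 stayed within 1.5 times. Counts of all genes called moved further. At day 3 they were 102 as reported, 0 with library totals, 202 with edgeR's own filter, 1940 with no filter, 2105 with DESeq2, 802 with the block and 3308 over all groups. In Ago2 KO cells they were 1095 as reported, 716 with DESeq2 size factors, 2643 with no filter, 1731 with DESeq2 and 4178 with the block, and in primed cells 8209 and, over all groups, 5128. For occupancy they were 0 as reported, 16 with no filter, 4 with DESeq2 and 6 with the block. For total RNA they were 509, 863 with no filter, 832 with DESeq2, 82 with the block and 1138 over all groups, and for polysome RNA 666, 1029 with no filter and 362 over all groups. Without 1 library they ranged from 2056 to 10018 in naive cells (5941 with all libraries), 82 to 8752 at day 3, 446 to 5617 in Ago2 KO cells, 2293 to 7089 for naive against primed enrichment (4349), 259 to 5546 for day 3 against MEF enrichment (2575), 2242 to 9799 for naive against primed cytoplasm (7056), 5595 to 9976 in MEFs (8955), 0 to 52 for occupancy, 6 to 3373 for total RNA and 179 to 951 for polysome RNA.

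Kcnq1ot1 after Nudt21 knockdown ranged without 1 library from 1.28 to 1.41 in the cytoplasm, −1.16 to −1.01 in P-bodies, −2.07 to −1.92 for the enrichment and −2.50 to −2.36 for its difference. Malat1 between polysome and total RNA of control cells turned to 0.0030 with DESeq2 size factors, 0.16 with library totals, 0.0039 with DESeq2 and 0.012 with the block, and ranged from −0.12 to 0.18 without 1 library. Tug1 in polysome RNA after DDX6 degradation turned to 2.8e-05 with library totals and ranged from −0.055 to 0.071. Other log2 values that changed sign without 1 library, none of them called with all libraries, were Meg3 (−0.92 to 0.20) and Mirg (−0.69 to 0.050) in naive cells, Neat1 in primed cells (−0.34 to 0.15), Mirg at day 3 (−1.02 to 1.83) and Meg3 between naive and primed enrichment (−0.69 to 0.43). The same held for Neat1 between polysome and total RNA of control cells (−0.068 to 0.15), Mirg in occupancy (−0.063 to 0.23), and Kcnq1ot1 (−0.016 to 0.36) and Malat1 (−0.10 to 0.0080) in polysome RNA. Library totals in place of TMM moved the median of all genes by −0.22 for naive enrichment, by −0.20, 0.25 and 0.16 for naive against primed, naive against MEF and day 3 against MEF cytoplasm, and by 0.17 and 0.18 for polysome against total RNA of control and degron cells.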

Other observations

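Levels in the polysome table and in the P-body table were normalized separately and come from other library preparations, so they are set side by side without a comparison. Meg3 was at 83.8 to 102 CPM in total libraries of the DDX6 degron line and its control, and at 8.36 to 19.9 CPM in the naive P-body and cytoplasm libraries. Rian was at 122 to 140 CPM and at 4.54 to 18.7 CPM, Mirg at 4.65 to 5.49 CPM and at 0.186 to 0.486 CPM, and Neat1 at 102 to 165 CPM and at 7.24 to 20.5 CPM. Tug1 was at 89.0 to 127 CPM in total libraries, 113 and 114 CPM in naive cytoplasm and 344 and 355 CPM in naive P-body libraries. Malat1 was at 145 to 260 CPM, 155 and 245 CPM, and 507 and 487 CPM. In the Ago2 KO table Rian was at 19.3 to 45.4 CPM and Meg3 at 8.64 to 14.5 CPM.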
